A study of Mus musculus with 8 samples.

Results

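The 9 oligodendrocyte lineage genes were followed in cultures of primary mouse cortical astrocytes: Olig1, Olig2, Sox10, Pdgfra, Cspg4, Mbp, Mog, Cnp and Mag. They were taken by gene symbol as classical genes of this lineage, with earlier results of these data known. All 9 were found among the 54146 genes listed for each library. RNA-seq was performed on 8 libraries in 4 groups of 2: unstimulated control KD, unstimulated GSTM1 KD, and each of these knockdowns with TNF-α added for 6 h at 50 ng/ml. All groups came from cortices of neonatal C57BL/6 pups, with the cells of about 2 brains pooled in each flask. All were infected with a lentivirus that expresses an shRNA (non-silencing in control KD, against Gstm1 in GSTM1 KD) and all were selected with puromycin. The virus was added to the mixed glia before astrocytes were enriched, so the shRNA was not limited to one cell type. Oligodendrocyte lineage cells and microglia were then shaken off, and remaining microglia were depleted by their surface CD11b. The study calls the replicates biological, but the labels do not say that they were separate cultures, so the p-values measure the spread between these libraries only.

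Oligodendrocytes wrap axons of the central nervous system in myelin and arise from dividing precursor cells. The transcription factors OLIG2 and OLIG1 set up the lineage and SOX10 drives the myelin program. Precursors carry the PDGF-AA receptor PDGFRA and the NG2 proteoglycan, the product of Cspg4, and mature cells make the myelin proteins MBP, MOG, CNP and MAG. Several of these genes are also used elsewhere: Olig1 and Olig2 in immature astrocytes, Cspg4 in pericytes, Pdgfra in fibroblasts and Cnp at low levels in many cells.

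Levels are given as TPM, a share of transcripts that is scaled for gene length and can be compared between genes, or expected counts, which are estimates of the fragments per gene. The expected counts summed to between 17349676 and 34434633 per library. Gstm1, the targeted gene, had 8153 and 9644 counts in control KD against 676 and 626 in GSTM1 KD without TNF-α, and 4851 and 6492 against 527 and 405 after TNF-α. It was lower by 3.33 (standard error 0.259, adjusted p = 0.0132) and 3.68 (standard error 0.315, adjusted p = 0.00981) on the log2 scale in edgeR's quasi-likelihood test, so the knockdown labels of all libraries held. Its counts do not check the TNF-α labels. All 10 astrocyte markers were detected in every library, led by Gfap, a filament protein of astrocytes, at 651 to 4184 TPM. Control KD replicate 1 stood apart in both states: Gfap was at 707 TPM there when unstimulated and at 651 TPM after TNF-α, against 2016 to 4184 TPM in the other 6 libraries. Where leaving it out changed the call or the direction of a lineage gene, both values are given.

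The 9 lineage genes fell into an expressed and a nearly silent class. Olig1 was the highest at 271 to 463 TPM, ranking between 342 and 607 among all genes of a library. Olig2 at 35.5 to 113 TPM and Cnp at 34.4 to 82.5 TPM followed and their ranges overlapped, so their order was not the same in every library. Cspg4 was at 11.2 to 28.3 TPM and Pdgfra at 0.96 to 2.18 TPM, and neither range overlapped that of the other members. Mbp was at 0.07 to 0.43 TPM and Sox10 at 0 to 0.24 TPM, and these also overlapped. Mog had a single count in 1 of 8 libraries, and Mag had 2 counts in each of 2 libraries and none in the others. With 3 counts as the limit that a count of 0 allows, the largest level these libraries could have missed for Mog was 0.326 TPM. The range of Olig1 overlapped that of Slc1a3, the astrocyte glutamate transporter GLAST, at 269 to 435 TPM, and Olig2 lay below it. Of the genes of mature oligodendrocytes, Mbp, Mog and Mag were at or near 0 and Cnp was not.

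**Figure D1:**
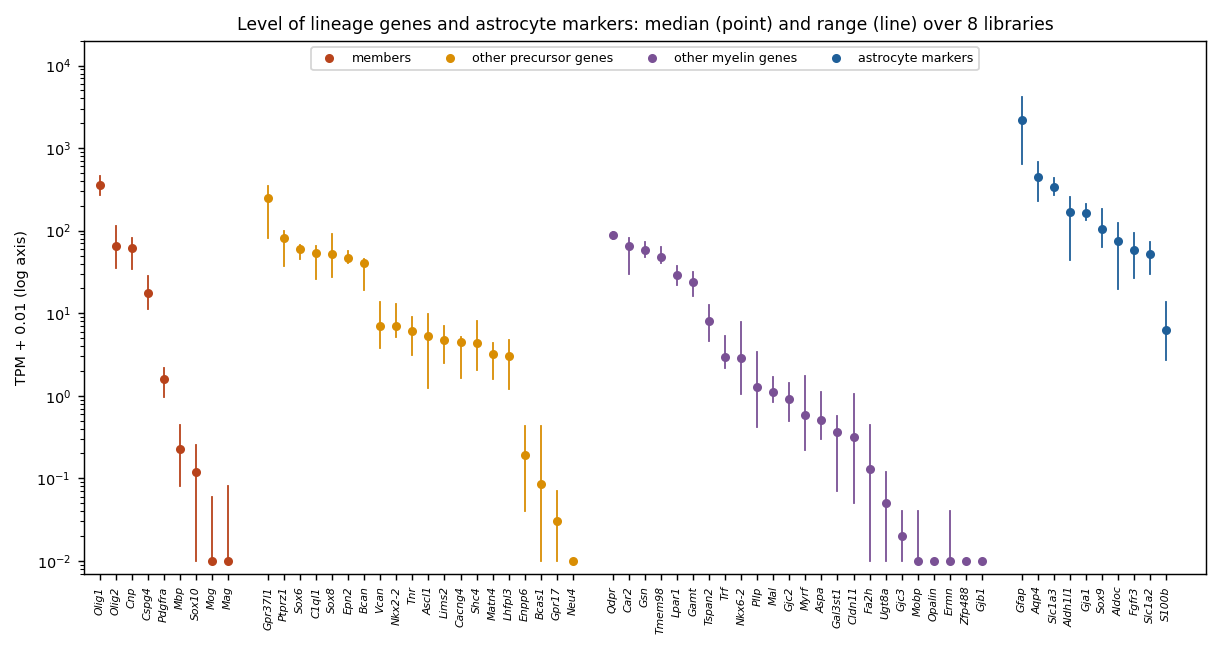
Level of the 9 lineage genes, 20 other precursor genes, 24 other myelin genes and 10 astrocyte markers, as TPM plus 0.01 on a log axis, with the median over 8 libraries as a point and the range as a line. The members run from Olig1 at 271 to 463 TPM down to Mag and Mog at the bottom of the axis, while all astrocyte markers lie at 2.74 TPM or more.

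The promoters show how different these genes are in base composition, which is why an expressed set is set beside a silent one here. RefSeq windows (build GRCm38.p6) of 300 bases, from 250 before to 50 after a RefSeq start, were matched for 6 of the 9 genes: Olig2, Pdgfra, Cspg4, Cnp, Mog and Mag. The capitals mark CpG dinucleotides, the sites of DNA methylation. Olig2, a gene that differed between groups, is at chr16:91225300-91225599 (+ strand). Cspg4 is at chr9:56864854-56865153 (+ strand) and Cnp at chr11:100574689-100574988 (+ strand). Mog, the myelin gene with 1 count in all, is at chr17:37023349-37023648 (- strand).
Olig2: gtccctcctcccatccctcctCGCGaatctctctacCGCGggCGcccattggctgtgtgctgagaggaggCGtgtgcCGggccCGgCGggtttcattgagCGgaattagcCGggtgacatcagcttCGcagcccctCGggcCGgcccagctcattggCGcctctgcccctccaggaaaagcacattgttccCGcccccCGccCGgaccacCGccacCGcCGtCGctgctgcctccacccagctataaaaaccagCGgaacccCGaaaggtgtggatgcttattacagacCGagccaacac
Cspg4: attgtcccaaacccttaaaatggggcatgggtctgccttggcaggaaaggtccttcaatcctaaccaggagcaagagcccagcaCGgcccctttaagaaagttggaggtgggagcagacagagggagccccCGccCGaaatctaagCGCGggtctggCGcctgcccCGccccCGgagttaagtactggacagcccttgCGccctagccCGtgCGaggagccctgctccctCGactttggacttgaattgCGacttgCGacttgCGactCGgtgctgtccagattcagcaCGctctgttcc
Cnp: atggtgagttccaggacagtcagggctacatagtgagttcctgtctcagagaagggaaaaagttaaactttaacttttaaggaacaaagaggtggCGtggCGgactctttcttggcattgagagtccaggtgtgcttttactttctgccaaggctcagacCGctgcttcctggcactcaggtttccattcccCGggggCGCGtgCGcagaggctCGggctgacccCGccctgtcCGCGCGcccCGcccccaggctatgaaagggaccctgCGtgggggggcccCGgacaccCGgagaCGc
Mog: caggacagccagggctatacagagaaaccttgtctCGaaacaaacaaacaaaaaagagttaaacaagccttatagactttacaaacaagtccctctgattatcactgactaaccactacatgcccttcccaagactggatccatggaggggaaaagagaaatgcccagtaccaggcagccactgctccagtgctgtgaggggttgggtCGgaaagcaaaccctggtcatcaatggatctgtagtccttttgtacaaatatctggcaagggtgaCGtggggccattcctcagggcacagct
The Olig2 window held 25 CpGs, more than 81.6% of the 32851 promoter windows of the same length, whose median was 7. Cspg4 and Cnp held 17 each (more than 68.6%), Pdgfra held 5 (more than 38%) and Mog held 3 (more than 23.3%). Mag has 3 windows, with 3, 6 and 3 CpGs. In these 6 genes the 3 with levels over 10 TPM had the highest CpG numbers, which is a description of 6 windows, and methylation was not measured.
Short motifs were searched on both strands. The E-box CANNTG, the core bound by OLIG and other bHLH factors, was in 72.3% of all windows but not in those of Olig2, Cspg4 and Mog, and was found once in Cnp, 2 times in Pdgfra and 1 or 2 times in each Mag window. The SOX-type core ACAAAG was in 18.7% of all windows once in the Cnp window and once in 2 of the 3 Mag windows. The NF-κB-like string GGGNNNNNCC was in 50.8% of all windows, once each in Olig2, Cspg4, Mog and every Mag window, 2 times, overlapping, in Pdgfra and 4 times, in overlapping pairs, in Cnp. TATAAA was in 13.6% of all windows and in the Olig2 window once, at position -8 from the RefSeq start.

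The transcription factors carried the differences that passed the test. Olig2 (ENSMUSG00000039830.9, chr16:91225457-91228677, + strand, GRCm38) was at 90.6 and 113 TPM in control KD and 59.1 and 58.8 TPM in GSTM1 KD without TNF-α. After TNF-α it was at 72.1 and 79.4 TPM in control KD and 35.5 and 37.0 TPM in GSTM1 KD. No GSTM1 KD library overlapped a control KD library in either state, and within each knockdown both TNF-α libraries lay below both basal libraries. The group means were 102 ± 15.5, 59.0 ± 0.212, 75.7 ± 5.12 and 36.2 ± 1.10 TPM (SD, n = 2) for unstimulated control KD, unstimulated GSTM1 KD, and the same knockdowns after TNF-α.
By edgeR's quasi-likelihood test Olig2 fell with the knockdown by 0.85 on the log2 scale without TNF-α (1.80-fold, standard error 0.131, adjusted p = 0.025). After TNF-α it fell by 1.14 (2.20-fold, standard error 0.1, adjusted p = 0.0102). Both calls were kept without control KD replicate 1 (log2 fold changes -0.99 and -1.21) and without control KD replicate 2 (-0.70 and -1.05). In these fits control KD is a single library and the spread comes from the GSTM1 KD pair alone, so they assume that control KD varies like GSTM1 KD. For Olig2 it did not: the SD was 15.5 and 5.12 TPM in control KD against 0.212 and 1.10 TPM in GSTM1 KD. Over all genes the control KD replicates also differed more. The kept calls therefore do not take in the spread of control KD. Both Olig2 calls were lost in the same test when a GSTM1 KD library was left out, with about the same size. Without TNF-α the values were -0.85 without replicate 1 and -0.85 without replicate 2, and after TNF-α they were -1.11 and -1.15. Over all genes only 1 and 3 calls without TNF-α and 0 and 94 after TNF-α were left in these fits, so the loss was not particular to Olig2.
The response of Olig2 to TNF-α was tested over all 8 libraries. In GSTM1 KD it fell by 0.67 on the log2 scale (1.59-fold, standard error 0.116, adjusted p = 0.031, edgeR). That call was lost when any GSTM1 KD library was left out (log2 fold change -0.68 to -0.65, adjusted p = 0.182 to 0.239, edgeR), in fits that called 74 to 255 genes against 406. In control KD the value was -0.40 (standard error 0.114, adjusted p = 0.159, edgeR), which did not pass and ran from -0.54 without unstimulated replicate 1 to -0.23 without unstimulated replicate 2. It passed in edgeR with no filter on low counts (adjusted p = 0.0302) or with the replicate number as a block (adjusted p = 0.0423). On the 4 control KD libraries alone it did not (adjusted p = 0.563, edgeR). The difference between these responses was itself tested and was -0.27 (standard error 0.162, unadjusted p = 0.144, adjusted p = 1, edgeR; -0.43 to -0.13 with 1 library left out), so a stronger response in GSTM1 KD was not shown.

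Olig1 (ENSMUSG00000046160.6, chr16:91269772-91271933, + strand) lies 41094 bases beyond Olig2 on the same strand. It was at 428 and 463 TPM in control KD and 362 and 343 TPM in GSTM1 KD without TNF-α, and at 354 and 370 against 290 and 271 TPM after TNF-α. Its libraries were ordered as those of Olig2: no overlap between the knockdowns in either state, and none between the states in either knockdown. The differences were smaller. Olig1 fell with the knockdown after TNF-α by 0.44 on the log2 scale (1.36-fold, standard error 0.110, adjusted p = 0.0497, edgeR), close to the threshold. With other normalizations (DESeq2's size factors, library size only), with effective length offsets or with a filter of 10 counts, the adjusted p from edgeR was 0.0508 to 0.0614, while DESeq2 gave 0.016. At the basal level the value was -0.40 (standard error 0.116, adjusted p = 0.083, edgeR), which passed with DESeq2 (adjusted p = 0.0315) and in edgeR with no filter, with all 8 libraries in the fit or without either control KD library (-0.45 without replicate 1, adjusted p = 0.0217 to 0.0474). Without GSTM1 KD replicate 1 or 2, in this order, the knockdown values did not pass in edgeR, with about the same size. They were -0.44 and -0.37 without TNF-α and -0.50 and -0.38 after TNF-α. The TNF-α values of Olig1, -0.28 in control KD and -0.29 in GSTM1 KD, did not pass. Olig1 shares exon sequence with the antisense gene Gm15966, which had 3 to 23 counts per library against 5166 to 17153 for Olig1.
The ratio of Olig1 to Olig2 in TPM was 4.11 to 4.91 in the 4 control KD libraries and 5.82 to 8.17 in the 4 GSTM1 KD libraries. The ratio therefore did not overlap between the knockdowns, as Olig2 differed more than Olig1.

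Sox10 (ENSMUSG00000033006.10, chr15:79154908-79165240, - strand) had 9 and 2 counts in control KD against 2 and 2 in GSTM1 KD without TNF-α, and 8 and 4 against 0 and 2 after TNF-α. It was too low for the test across genes. Pooled over the libraries of a group, the ratio of GSTM1 KD to control KD was 0.519 without TNF-α (4 against 11 counts, 95% exact interval 0.121 to 1.75) and 0.171 after TNF-α (2 against 12 counts, 0.0185 to 0.766). These intervals cover counting error only, not the spread between cultures. In bulk RNA, fewer cells of a type and less RNA per cell cannot be told apart, and this holds for every gene here.

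**Figure D2:**
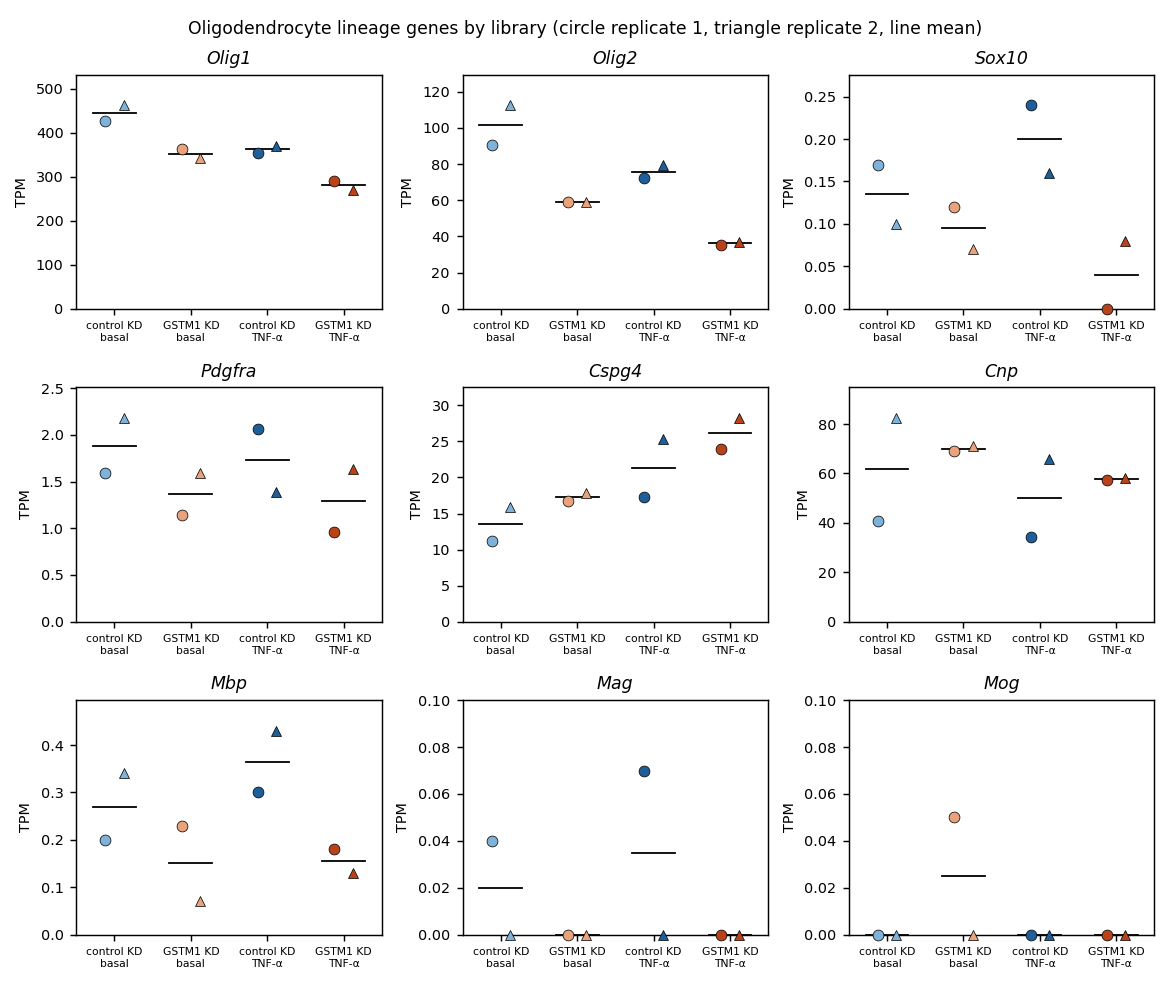
TPM of each of the 9 lineage genes in each library, with replicate 1 as a circle, replicate 2 as a triangle and the group mean as a line, on axes that start at 0 and differ between panels. Olig1 and Olig2 are lowest in GSTM1 KD after TNF-α (271 and 290 TPM, 35.5 and 37.0 TPM), while the triangles and circles of control KD lie far apart for Cnp.

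The precursor surface genes did not follow one direction, and neither passed in any comparison with the settings used throughout. Both passed in edgeR for the knockdown without TNF-α when the replicate number was a block (adjusted p = 0.0317 for Pdgfra and 0.0346 for Cspg4). Cspg4 then also passed for TNF-α in both knockdowns. The labels do not say what that number marks. With no filter on low counts, Pdgfra passed in edgeR for the knockdown without TNF-α (adjusted p = 0.0411) and Cspg4 for TNF-α in both knockdowns (adjusted p = 3.27e-05 with the control shRNA, 0.000196 with Gstm1 shRNA). Without the filter 1255 and 1050 genes were called for TNF-α, against 403 and 406. The standard errors of Olig1, Olig2, Cspg4 and Cnp for the basal knockdown were then 0.143 to 0.146, against 0.116 to 0.295 with the filter. They no longer followed the spread of each gene. Pdgfra (ENSMUSG00000029231.15, chr5:75152292-75198215, + strand) had 180 and 160 counts in control KD against 69 and 72 in GSTM1 KD without TNF-α, and 149 and 90 against 78 and 86 after TNF-α. In CPM, the counts scaled to library size, the libraries of the knockdowns did not overlap in either state, with 5.17 and 6.35 against 2.97 and 3.58 CPM without TNF-α and 6.38 and 5.43 against 3.57 and 4.86 CPM after TNF-α. The fitted differences of -0.79 (standard error 0.255, adjusted p = 0.103) and -0.50 (standard error 0.268, adjusted p = 0.233) did not pass in edgeR. In TPM, which divides by an effective length that ran from 4030 to 6479 bases for this gene, the basal knockdowns met at 1.59, and after TNF-α they overlapped with 2.06 and 1.39 against 0.96 and 1.63 TPM. The basal difference was -0.52 with effective length offsets (adjusted p = 0.311, edgeR) and -0.44 as a difference of mean log2(TPM + 0.1), and the difference after TNF-α ran from -0.74 to -0.28 with 1 library left out. The summed level of markers of fibroblasts, a cell type that also uses Pdgfra, was 91.3 to 150 TPM in control KD and 54.8 to 90.3 TPM in GSTM1 KD without TNF-α, and 87.3 to 143 against 53.9 to 91.8 TPM after TNF-α. The sum came mostly from the collagen genes Col1a1 and Col1a2, and Twist1, a mesenchymal transcription factor, had group means of 8.19 against 3.38 TPM without TNF-α and 7.65 against 3.01 TPM after TNF-α. Of 8 fibroblast genes 6 were tested and 1, Col1a2, was lower in both states (-1.13, adjusted p = 0.0352, and -0.99, adjusted p = 0.025, edgeR). Over all genes 10.2% were called without TNF-α (5.62% lower) and 16.2% after TNF-α (8.92% lower). The median of the fibroblast list was -0.78 and -0.67 in these states, against 0.00 and -0.01 over all genes. Dcn, at 1.0 to 2.4 TPM, and Postn had higher group means in GSTM1 KD than in control KD and were not called. Without TNF-α the means were 1.145 in control KD against 1.33 TPM for Dcn and 0.625 against 0.655 TPM for Postn. After TNF-α they were 1.33 against 1.73 TPM and 0.62 against 1.405 TPM. The defining markers Lum and Fap had at most 7 counts. The part of fibroblasts in the Pdgfra values was not tested.

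Cspg4 (ENSMUSG00000032911.6, chr9:56865033-56899870, + strand) was at 11.2 and 15.8 TPM in control KD and 16.8 and 17.9 TPM in GSTM1 KD without TNF-α, and at 17.4 and 25.4 against 24.0 and 28.3 TPM after TNF-α. In CPM the knockdowns overlapped in both states, and both TNF-α libraries lay above both basal libraries in each knockdown. The TNF-α differences were 0.69 in control KD (standard error 0.251, adjusted p = 0.293, edgeR) and 0.63 in GSTM1 KD (standard error 0.25, adjusted p = 0.405, edgeR). With 1 library left out, the control KD value ran from 0.35 (without TNF-α replicate 2) to 1.00 (without unstimulated replicate 2) and did not pass. With the knockdown the values were 0.32 and 0.24 in the 2 states (adjusted p = 0.321 and 0.467, edgeR). These depended on the control KD library used: 0.62 without replicate 2 and 0.06 without replicate 1 without TNF-α, and 0.59 and -0.04 after TNF-α. The first value of each pair passed in edgeR (adjusted p = 0.00494 and 0.0125). Of the pericyte and smooth muscle markers, Kcnj8 and Abcc9 had at most 1 count in any library. Anpep, Des and Myh11 were at no more than 0.57 TPM and Rgs5 was at 0.19 to 1.65 TPM. Pdgfrb was at 7.43 to 30.6 TPM, Notch3 at 10.6 to 17.2 TPM and Acta2, which cultured glia also make, at 1516 to 3935 TPM. The part of pericytes in the Cspg4 values was not tested.

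The myelin genes separated into Cnp and the rest. Cnp (ENSMUSG00000006782.16, chr11:100574904-100591729, + strand), which encodes a phosphodiesterase of the myelin membrane, was at 40.9 and 82.5 TPM in control KD and 69.0 and 71.1 TPM in GSTM1 KD without TNF-α. After TNF-α it was at 34.4 and 65.9 against 57.4 and 58.3 TPM. The GSTM1 KD libraries lay between the 2 control KD libraries in both states, so no direction could be read. The fitted values were 0.14 for the knockdown in each state, -0.24 for TNF-α in control KD and -0.22 in GSTM1 KD, with adjusted p of 0.767 or more in edgeR. Without control KD replicate 2 the knockdown values were 0.68 and 0.69 and passed in edgeR (adjusted p = 0.00169 and 0.00305), and without control KD replicate 1 they were -0.26 in each state. Cnp shares exon sequence with Dnajc7 on the opposite strand, which had 2230 to 5732 counts, and the strand setting of the counting is not given in the sources used here.

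Mbp (ENSMUSG00000041607.16, chromosome 18, + strand), the main protein that compacts myelin, had 19 and 13 counts in control KD against 10 and 2 in GSTM1 KD without TNF-α, and 17 and 18 against 5 and 6 after TNF-α. In CPM no GSTM1 KD library reached a control KD library in either state. The pooled ratio of GSTM1 KD to control KD was 0.536 without TNF-α (12 against 32 counts, 95% exact interval 0.251 to 1.07) and 0.322 after TNF-α (11 against 35 counts, 0.147 to 0.648). Fitted on the log2 scale these were -0.93 (adjusted p = 0.368) and -1.66 (adjusted p = 0.0713), and did not pass in edgeR. The first ran from -2.33 without GSTM1 KD replicate 1 to -0.29 without GSTM1 KD replicate 2. In both states Mbp passed the filter on low counts through the control KD libraries, so it was tested only because it was high there. A median of 0.215 TPM over the libraries is a trace level, and its effective length ran from 2157 to 4573 bases, so its TPM is less sure than its count.

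Mog (ENSMUSG00000076439.12, chr17:37010743-37023398, - strand), a protein of the outer myelin surface, had 1 count in GSTM1 KD replicate 1 without TNF-α and 0 elsewhere. Mag (ENSMUSG00000036634.15, chr7:30899176-30914873, - strand), an adhesion protein on the axonal side of myelin, had 2 counts in control KD replicate 1 without TNF-α and 2 in control KD replicate 1 after TNF-α. Both were at or under 3 counts in every library, so a difference between groups was not detectable at this depth.

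**Figure D3:**
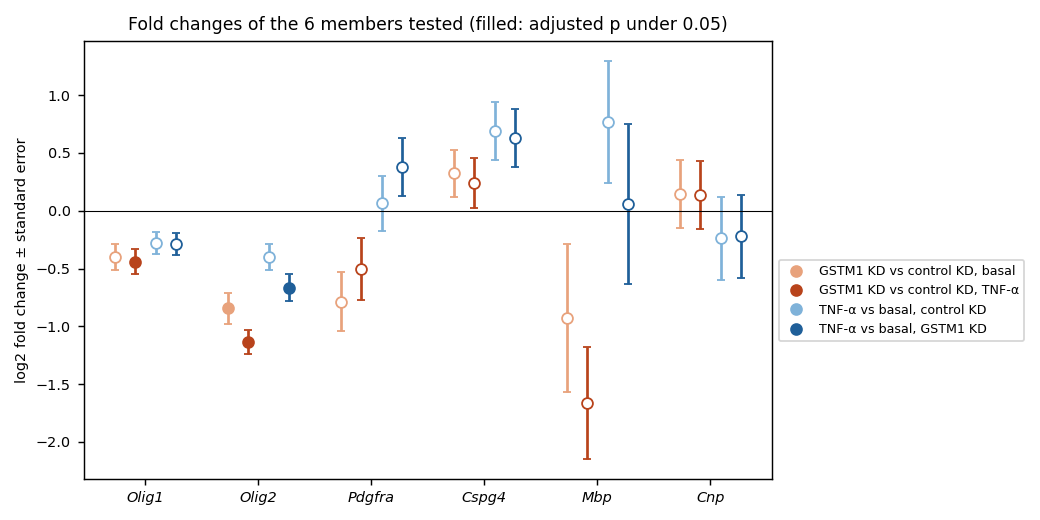
Log2 fold changes with their standard errors for the 6 lineage genes that passed the filter on low counts, in the 4 comparisons, with filled points where the adjusted p in edgeR was under 0.05. The filled points are Olig2 for the knockdown in both states and for TNF-α in GSTM1 KD, and Olig1 for the knockdown after TNF-α.

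Over the 9 genes, 6 passed the filter on low counts and Sox10, Mog and Mag did not. Of the 6, Mbp passed it through the control KD libraries, where it was higher. For the knockdown without TNF-α 1 of the 6 was called lower and 0 higher, where 10.2% of all 14899 genes tested were called (5.62% lower, 4.6% higher). After TNF-α 2 of the 6 were lower and 0 higher, where 16.2% of 14593 genes were called (8.92% lower, 7.26% higher). For TNF-α in control KD 0 of 6 were called by edgeR, against 2.63% of 15332 genes. Of the 6, 3 (Olig1, Olig2 and Cspg4) were under an unadjusted p of 0.05 in edgeR, as were 1920 of all 15332 genes. DESeq2 called 0 of the members. For TNF-α in GSTM1 KD 1 of 6 was lower, against 2.65% called in all and 0.294% called lower. For the difference between the responses edgeR called 0 of 6 and 0% of all genes, with 295 genes under an unadjusted p of 0.05, while DESeq2 called 27 genes. With 2 libraries against 2, an exact permutation test of a single gene cannot go below p = 0.333, so all p-values come from the fit across genes. The same control KD libraries serve the knockdown comparison and the TNF-α comparison, so these are not independent.

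Other genes of the precursor stage were read from a list of 20, of which 16 were tested for the knockdown in either state. At the basal level 3 were lower and 0 higher, and after TNF-α 4 were lower and 0 higher. Over all genes tested, edgeR called 10.2% (5.62% lower) and 16.2% (8.92% lower) in these states. The split within the list depended on the settings. DESeq2 called 3 of 16 higher and 4 lower without TNF-α and 2 and 4 after TNF-α, where it called 18.2% and 20.4% of all genes. With no filter on low counts, edgeR called 8 of 19 higher and 4 lower without TNF-α and 6 and 4 after TNF-α, against 16% and 18.8% of all genes. The list as a whole did not shift down: its median log2 fold change was 0.33 without TNF-α and 0.39 after TNF-α, against 0.00 and -0.01 over all genes.
Sox8, a SOX factor that acts beside Sox10, was at 91.2 and 76.8 TPM in control KD and 40.1 and 43.5 TPM in GSTM1 KD without TNF-α, and at 79.1 and 62.2 against 29.8 and 27.8 TPM after TNF-α. Its groups did not overlap, and it fell by 1.06 (adjusted p = 0.0204) and 1.37 (adjusted p = 0.0119) in edgeR. Nkx2-2, a homeobox factor of the lineage, was at 8.21 and 12.9 against 5.56 and 5.88 TPM without TNF-α, where it did not pass (-0.83, adjusted p = 0.0865, edgeR). After TNF-α it was at 8.35 and 10.3 against 5.38 and 5.13 TPM, and fell by 0.97 (adjusted p = 0.0435, edgeR; 0.0586 with effective length offsets).
Shc4, an adaptor protein of receptor signalling, fell by 1.32 without TNF-α (adjusted p = 0.0282) and 1.24 after TNF-α (adjusted p = 0.0234) in edgeR. Vcan, a chondroitin sulphate proteoglycan of the matrix, fell by 0.70 (adjusted p = 0.0341) and 0.79 (adjusted p = 0.0194). These knockdown calls, like the other knockdown calls of list genes named here, were lost in edgeR when either GSTM1 KD library of that state was left out. So were those of Gstm1 (adjusted p = 0.0648 to 0.0999, edgeR), except after TNF-α without replicate 2 (adjusted p = 0.047, edgeR).
Some precursor genes lay on the other side of 0 without passing in edgeR at the settings used throughout, such as Lhfpl3 at 1.24 and 1.36 (adjusted p = 0.0519 and 0.0575). Gpr37l1 and Ptprz1 were at 0.71 and 0.77, and at 0.58 and 0.52 (adjusted p from 0.218 to 0.291, edgeR). Astrocytes also express Gpr37l1 and Ptprz1, and likewise Sox8 and Vcan, which were called lower. Without control KD replicate 2, edgeR called 8 genes of the list higher and 3 lower without TNF-α, and 8 higher and 4 lower after TNF-α, in fits that called 34.2% and 32.9% of all genes.
After TNF-α in control KD, Vcan was higher by 0.62 (adjusted p = 0.0325) and Lims2 fell by 1.32 (adjusted p = 0.0289), both in edgeR and both lost when any control KD library was left out. In GSTM1 KD edgeR called 0 of 16 for TNF-α, and DESeq2 called 2. Within the list, Neu4 had 0 counts in all libraries and Gpr17, a receptor of committed precursors, had at most 4.

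Other myelin genes were read from a list of 24, of which 14 were tested without TNF-α and 13 after TNF-α for the knockdown. At the basal level 1 was higher and 1 lower, after TNF-α 0 were higher and 1 lower, and for TNF-α in either knockdown 0 of 14 were called by edgeR. Over all genes tested, 10.2% and 16.2% were called for the knockdown. For TNF-α the shares were 2.63% in control KD and 2.65% in GSTM1 KD. The medians for the knockdown were -0.08 and -0.195, against 0.00 and -0.01 over all genes. Tspan2, a tetraspanin, was at 10.6 and 12.5 TPM in control KD and 6.02 and 4.59 TPM in GSTM1 KD without TNF-α, and at 10.2 and 9.97 against 6.03 and 5.55 TPM after TNF-α. It fell by 1.13 (adjusted p = 0.0266) and 0.65 (adjusted p = 0.0445) in edgeR, the latter also lost without control KD replicate 1 (adjusted p = 0.0539) or with library size only (adjusted p = 0.0514).
Cldn11, a claudin of myelin tight junctions, went the other way, with 2 and 2 counts in control KD against 11 and 19 in GSTM1 KD without TNF-α (adjusted p = 0.0382, edgeR). It passed the filter on low counts through GSTM1 KD alone, so it was tested only because it was high there. With no filter the log2 fold change was 3.30 (adjusted p = 0.000504, edgeR), against 3.325 with the filter. A filter of 10 counts in every library removes Cldn11 before the test, so that setting cannot decide its direction. The call with the filter used throughout was lost without control KD replicate 1 (log2 fold change 3.08). Myrf, the factor that starts myelin gene expression, was at 0.21 to 1.73 TPM, and its values of -1.86 and -1.93 did not pass in edgeR (adjusted p = 0.0711 and 0.0684). Opalin, Gjb1 and Zfp488 had 0 counts in all libraries, and Mobp and Ermn had at most 1. Among the myelin genes read at higher levels, Qdpr at 80.0 to 97.1 TPM and Car2 at 30.0 to 82.5 TPM, encode enzymes that many cells use, and Gsn at 48.1 to 73.0 TPM encodes the actin-binding protein gelsolin.

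**Figure D4:**
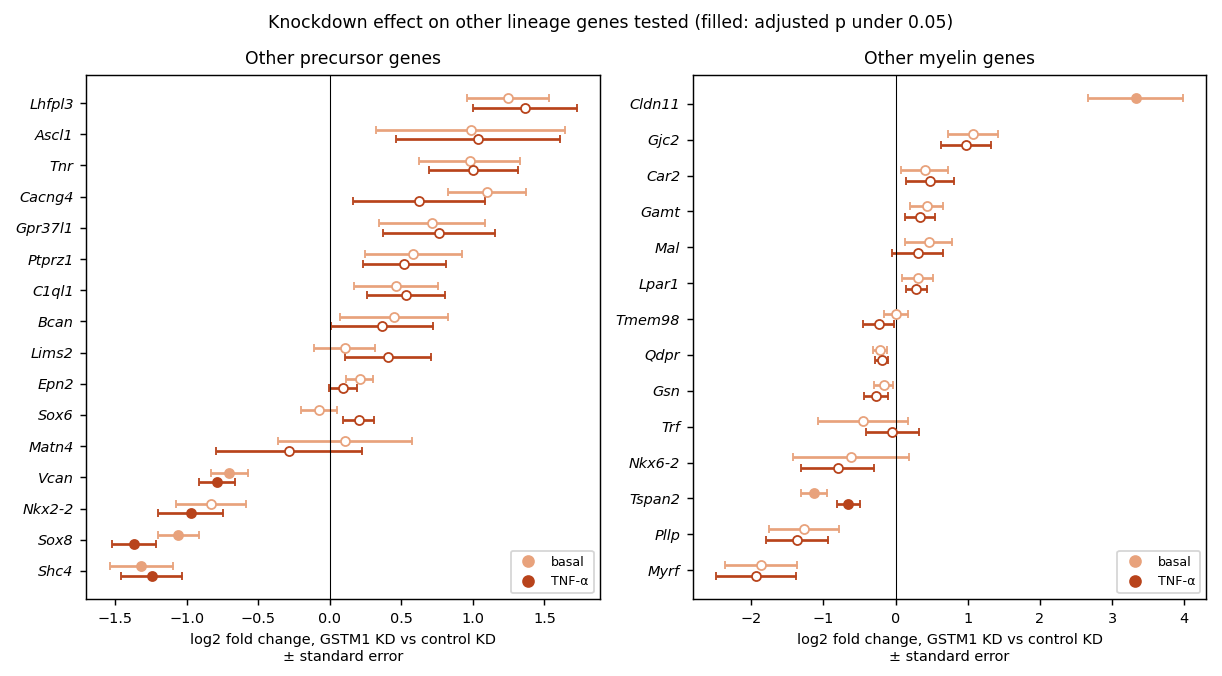
Log2 fold changes of GSTM1 KD against control KD with standard errors for the tested genes of both other lineage lists, without and with TNF-α, with filled points where the adjusted p in edgeR was under 0.05. Shc4, Sox8 and Vcan are filled below 0 in both states and Nkx2-2 after TNF-α, while Lhfpl3 lies above 1 with open points. Among the myelin genes Tspan2 is filled below 0 in both states and Cldn11 above 0 without TNF-α.

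The ligands and the other receptor of the PDGF family were followed because PDGF-AA, acting through PDGFRA, drives the division of precursors and is made by astrocytes. Pdgfa was at 226 and 197 TPM in control KD and 156 and 140 TPM in GSTM1 KD without TNF-α, and at 224 and 225 against 151 and 165 TPM after TNF-α. It fell with the knockdown by 0.56 (adjusted p = 0.0486) and 0.53 (adjusted p = 0.0245) in edgeR, and its groups did not overlap. The first was lost with effective length offsets or with library size as the only scaling (adjusted p = 0.0532 and 0.0592, edgeR). Its transcript stood well above that of its receptor Pdgfra, which was at no more than 2.18 TPM. Pdgfd, a ligand of PDGFRB, was at 7.04 and 9.85 against 16.2 and 21.4 TPM without TNF-α and at 6.96 and 8.32 against 15.5 and 19.2 TPM after TNF-α. It was higher in GSTM1 KD by 1.13 (adjusted p = 0.0363) and 1.17 (adjusted p = 0.0194) in edgeR.
Pdgfrb was at 16.8 and 25.8 TPM in control KD and 30.4 and 30.6 TPM in GSTM1 KD without TNF-α, and at 7.43 and 9.82 against 14.95 and 16.8 TPM after TNF-α. It was higher in GSTM1 KD after TNF-α by 0.81 (adjusted p = 0.0337) and had a log2 fold change of -1.28 with TNF-α in control KD (adjusted p = 0.0279) in edgeR. Pdgfb was at 22.0 to 27.9 TPM in the 4 basal libraries and 84.9 to 147 TPM in the 4 TNF-α libraries. It was higher after TNF-α by 2.28 where the shRNA was the control (adjusted p = 0.00764) and by 2.04 with Gstm1 shRNA (adjusted p = 0.00922) in edgeR. Pdgfc fell with TNF-α in control KD by 0.67 (adjusted p = 0.0105, edgeR). With a library left out, Pdgfb lost its call in GSTM1 KD without either unstimulated library (adjusted p = 0.115 and 0.0796, edgeR). Pdgfc lost its call without unstimulated control KD replicate 2 (adjusted p = 0.0532), and Pdgfrb its TNF-α call without that library or either TNF-α library of control KD (adjusted p = 0.0586 to 0.114, edgeR).
In all, of 5 family genes 1 was higher and 1 lower for the knockdown without TNF-α, 2 and 1 after TNF-α, 1 and 2 for TNF-α in control KD and 1 and 0 for TNF-α in GSTM1 KD, where 10.2%, 16.2%, 2.63% and 2.65% of all genes were called in the same order. Fitted on the 4 control KD libraries alone, edgeR called 0 of 5 for TNF-α there.

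**Figure D5:**
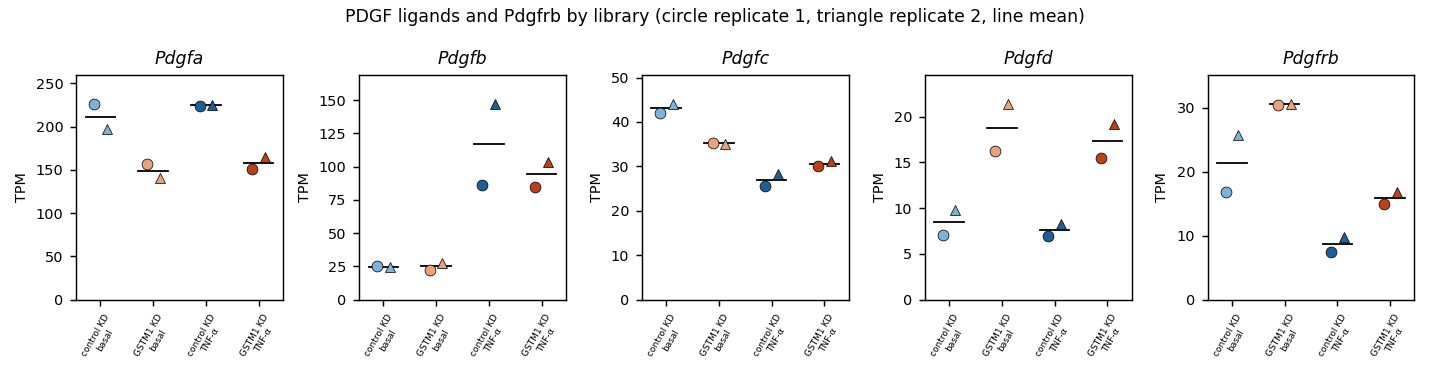
TPM of the PDGF ligands and of Pdgfrb in each library, with replicate 1 as a circle, replicate 2 as a triangle and the group mean as a line, on axes that start at 0. Pdgfa is lower and Pdgfd higher in both GSTM1 KD groups, and Pdgfb stands at 84.9 to 147 TPM after TNF-α against 22.0 to 27.9 TPM before.

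Regulators that hold back or time oligodendrocyte differentiation were read from a list of 12, of which 10 were tested. For the knockdown 0 were higher and 2 lower without TNF-α, and 2 were higher and 1 lower after TNF-α, against 10.2% and 16.2% called over all genes. The median was -0.23 and -0.22 in the 2 states. Id4, an inhibitor of bHLH factors that binds the partners of OLIG proteins, was at 28.6 and 36.8 TPM in control KD and 62.0 and 72.6 TPM in GSTM1 KD after TNF-α, higher by 0.97 (adjusted p = 0.0197, edgeR). Tcf3, which encodes an E protein partner of bHLH factors, fell by 0.50 without TNF-α (adjusted p = 0.0416) and 0.57 after TNF-α (adjusted p = 0.0189) in edgeR. Hes1, a Notch target that represses neural differentiation genes, fell by 0.76 without TNF-α (adjusted p = 0.0398, edgeR). The Hes1 call and the first Tcf3 call did not pass with effective length offsets and with library size only, in this order (adjusted p = 0.051 and 0.053, edgeR), and Id4 did not with all 8 libraries in the fit (adjusted p = 0.0661, edgeR).
Tcf7l2, a factor of the Wnt pathway, was higher in GSTM1 KD after TNF-α by 0.69 (adjusted p = 0.0276) and fell with TNF-α in control KD by 0.68 (adjusted p = 0.0211) in edgeR. For TNF-α in GSTM1 KD edgeR called 0 of 10 (2.65% of all genes). In control KD the Tcf7l2 call was the 1 call among the 10 (2.63% of all genes). It was lost without unstimulated control KD replicate 2 or either TNF-α library of control KD (adjusted p = 0.0929 to 0.107, edgeR).

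Markers of other cell types were read beside these genes. The 10 astrocyte markers summed to 1634 to 3870 TPM in control KD and 3744 to 5807 TPM in GSTM1 KD without TNF-α, and to 1608 to 3684 against 3557 to 5477 TPM after TNF-α. Gfap made the largest part, with group means of 1456 against 3259 TPM without TNF-α. There Aqp4 (385 against 380 TPM) and Slc1a3 (347 against 342 TPM) differed little, and Sox9 was lower (149 against 110 TPM). The median log2 fold change of the list was 0.39 without TNF-α and 0.28 after TNF-α. Of the 10 markers, all tested, 1, S100b, was called, lower by 1.44 (adjusted p = 0.0269) and 1.71 (adjusted p = 0.0387) in edgeR. Over all genes 10.2% were called without TNF-α and 16.2% after TNF-α. The lower astrocyte sums were those of control KD replicate 1, in which Cnp, Cspg4, Gpr37l1 and Ptprz1 also had their lowest level of each state, whereas Olig1 and Olig2 were lowest in GSTM1 KD. The part of the astrocyte share in these values was not tested.
Microglial markers summed to at most 7.0 TPM, led by C1qa at 0.45 to 4.62 TPM, with P2ry12 at no more than 2 counts. Endothelial markers summed to at most 3.27 TPM, and Cldn5 had 0 counts. Cdh5 had the highest group mean of them in control KD. In GSTM1 KD it was Kdr, at 0.735 against 0.73 TPM for Cdh5 without TNF-α and 0.785 against 0.715 TPM after TNF-α. Neuronal markers summed to 168 to 233 TPM, nearly all from Stmn2 and Tubb3, while Snap25 and Dcx had at most 2 counts. Of the Schwann cell markers, Foxd3 had at most 2 counts, Egr2 was at 3.42 to 8.0 TPM, Cdh19 at 2.3 to 4.21 TPM and Pmp22 at 70.7 to 184 TPM, and their part in the Sox10 and myelin traces was not tested. EdgeR called 0 of the tested genes of these 4 lists in the knockdown comparisons, where it called 10.2% and 16.2% of all genes. The pericyte and smooth muscle sum was 3566 to 3965 TPM in control KD and 1776 to 2159 TPM in GSTM1 KD without TNF-α, and 3035 to 3076 against 1548 to 1843 TPM after TNF-α. It came nearly all from Acta2, a smooth muscle actin that cultured glia also make, which fell by 1.02 (adjusted p = 0.027) and 0.93 (adjusted p = 0.0209) in edgeR. The list did not share this direction, with medians of -0.01 and 0.24. Of its genes tested, 0 were higher and 1 lower of 6 without TNF-α, where 10.2% of all genes were called. After TNF-α 1 (Pdgfrb) was higher and 1 lower of 5, where 16.2% of all genes were called. Acta2 was lower where Olig2 was, and its part in the Olig2 values was not tested.

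The genes whose pattern over the 8 libraries was most like each member were found by the root mean square difference of log2 CPM, each gene centred on its own mean, among 13374 genes with a mean of at least 1 CPM (13375 for Mbp). Olig2 was closest to Myo10 (0.113), Arhgap31 (0.119) and AC079042.1 (0.128), where the median over all candidates was 0.604. Olig1 was closest to Eogt (0.0472), Atoh8 (0.0624) and Cep95 (0.0637), with a median of 0.339. Neither of the pair was among the 3 genes nearest to the other.
Cspg4 was closest to Kcnk10 (0.0307), Atp8a1 (0.1) and Efhd2 (0.117), and Cnp to Dbi (0.0886), Stom (0.0892) and Ccdc170 (0.0932). Pdgfra was closest to Trim65 (0.129), RP23-442M18.1 (0.132) and Shroom4 (0.148). Mbp was less closely matched, with Sult4a1 (0.339), Slc22a18 (0.346) and Tead2 (0.365). No member was among the 3 nearest genes of another member.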

How the data were processed

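RNA-seq of 8 libraries of cultured astrocytes was analysed, 2 in each of 4 groups taken from the labels. Per the labels, the authors mapped 100-bp paired reads to GRCm38 (mm10) with STAR (2.5.4b) and quantified genes with RSEM (1.3.0). The annotation release and the strand setting of the counting are not given in the sources used here. The deposited expected counts, one estimate per gene and library from RSEM, are not normalized. The deposited TPM values were made by the authors' RSEM run from the same counts and effective lengths. The deposited effective length, in bases, follows the transcripts that RSEM saw in each library and can alter the TPM of low genes.

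Expected counts were rounded and tested with edgeR (4.0.16, in R 4.3.3): TMM factors, filterByExpr, glmQLFit and glmQLFTest over all genes, Benjamini-Hochberg adjustment over all genes tested, threshold 0.05. The knockdown was tested on the 4 libraries of each state, and the TNF-α responses and their difference on all 8 libraries. Library totals ran from 17349676 to 34434633. Intervals of low counts are exact at 95% and cover counting error only. Replicates differed by more than sampling noise and were counted separately. The fit was tested on simulated data. Alternatives were DESeq2 (1.42.0), other normalizations and filters, effective length offsets, log2(TPM + 0.1), other sets of libraries, the replicate number as a block and leaving out each library.

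Coordinates are of GENCODE genes and promoter sequences of RefSeq, both on GRCm38. The genes and lists were chosen with earlier results of these data known. Named with values were the 9 members, Gstm1, the list genes past the threshold (at most the 4 with the smallest p per direction), the highest gene of each marker list and the 3 genes most like each tested member. Other list genes named (among them Lhfpl3, Gpr37l1, Ptprz1, Egr2, Cdh19, Myrf, Qdpr and Car2) were chosen after their values were seen. A gene of each of the myelin and Schwann cell lists is not reported here and was left out of the list counts. The columns used hold no authors' comparisons.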

Additional observations from a re-analysis of the deposited data

How the results depend on the processing

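For 58 fold changes, 715 alternative values were computed: 578 kept their direction and side of the threshold, 100 lost and 21 gained the threshold, 14 changed sign and 2, differences of mean log2(TPM + 0.1) that carry no test, moved by more than the standard error. Some tested values that kept direction and side also shifted by more than that. The limits are 2 libraries per group, very low counts of Sox10, Mbp, Mog and Mag, and control KD libraries that differ from each other. The sign changes were in values that had not passed the test.

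The members called for the knockdown without TNF-α numbered 1, and 2 with DESeq2, 3 with no filter on low counts, 2 with all 8 libraries in the fit and 0 to 4 with 1 library left out. After TNF-α 2 were called, against 1 with DESeq2 size factors, library size only, a filter of 10 counts or effective length offsets, 3 (Mbp, Olig1, Olig2) with no filter, and 0 to 4 with 1 library left out. For TNF-α in control KD 0 were called, against 2 with no filter. For TNF-α in GSTM1 KD 1 was called, against 2 with no filter or with only the 4 GSTM1 KD libraries, and 0 to 0 with 1 library left out. Calls fell to 0 without either GSTM1 KD library and rose to 4 (Cnp, Cspg4, Olig1, Olig2) without control KD replicate 2. The cause of these shifts was not tested.

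The same replicate numbers occur in all groups, but the labels do not say what a number marks. Deviations of same-numbered libraries correlated at 0.165 to 0.575 between groups. With the replicate number as a block, 4 members (Cspg4, Olig1, Olig2, Pdgfra) were called for the knockdown without TNF-α, 2 after TNF-α, 2 (Cspg4, Olig2) for TNF-α in control KD and 2 (Cspg4, Olig2) in GSTM1 KD, and 4712, 4302, 988 and 808 genes in all, against 1524, 2360, 403 and 406 without it.

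Over all genes the counts in the same order were 3957, 4540, 1255 and 1050 with no filter and 2492, 2824, 742 and 630 with DESeq2. The basal knockdown count was 2762 with all 8 libraries, and the TNF-α counts were 72 and 691 on 4 libraries. With 1 library left out the counts ran from 1 to 5256, 0 to 5028, 180 to 313 and 74 to 255. The interaction gave 0, 27 with DESeq2, 134 with no filter and 0 to 2 with 1 library left out.

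Values that changed sign were these. With 1 library left out, Cnp ran from -0.26 to 0.68 and -0.26 to 0.69 for the knockdown in the basal and TNF-α states and from -0.78 to 0.32 for TNF-α in control KD. Cspg4 ran from -0.042 to 0.59 for the knockdown after TNF-α, Pdgfra from -0.076 to 0.23 for TNF-α in control KD, and Mbp from -0.58 to 1.46 for TNF-α in GSTM1 KD. For TNF-α, Pdgfra was at -0.10 with effective length offsets and -0.13 as a TPM difference in control KD, and at -0.044 and -0.10 in GSTM1 KD. Mbp was at -0.010 with these offsets in GSTM1 KD.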
